A study of Mus musculus with 4 samples.

Results

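The Zbtb genes encode transcription factors that join a BTB domain, which pairs the proteins and recruits corepressors, to a set of C2H2 zinc fingers that bind DNA. CTCF, the protein profiled here, is itself a C2H2 zinc-finger protein, which marks chromatin boundaries and loop anchors. Members of the Zbtb family steer blood and lymphoid development, read methylated DNA, bind telomeres and guide neuronal maturation, and the best known of them in the testis maintains spermatogonial stem cells. ChIP-seq for CTCF was made from testes of F1 (B6 x CAST) hybrids, with 2 immunoprecipitated (IP) samples and 2 input samples. No other genotype, treatment or age is given in the labels. The tissue was unsorted, and its germ cells and somatic cells cannot be separated in these values. The values are those of 1 merged list of 51871 CTCF peaks in mm10 coordinates, which carries no value per sample, so no spread between animals stands behind any value here and the read depth is unknown.

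The members were the protein-coding RefSeq genes whose symbol is Zbtb followed by a digit, leaving out Zbtb16, which gave 40 genes of 21518 such genes over 19 autosomes and the X chromosome. A gene is called bound where the summit of a peak, its point of highest signal, lay inside the gene or within 1 kb of either end. The members were chosen by symbol, and the bound and unbound ones among them were selected on these same summits, so the shares below are descriptions and no test was made of them. The label holds with 1 exception. Zbtb8os matches by its symbol, but it is named for its place opposite Zbtb8 and encodes archease, a cofactor of RNA ligation and no zinc-finger protein.

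A CTCF summit was found at 35 of the 40 Zbtb genes (87.5%, exact 95% interval 73.2 to 95.8). Of 21478 other protein-coding genes, 13432 (62.5%) had one. At 28 members a summit lay within 1 kb of an annotated end (70%, interval 53.5 to 83.4), where 39% of other genes had one. A further 7 members had summits inside the gene only (17.5%, against 23.5% of other genes), and 5 had none (12.5%, against 37.5%). Shares carry Clopper-Pearson intervals that cover counting error only. For the bound share, most of the difference lay among summits of low fold. A summit of fold 5 or more was found at 22 members (55%, interval 38.5 to 70.7), against 50.5% of other genes. One of fold 8 or more was found at 12 members (30%), slightly below the 32.2% of other genes, and one of fold 10 or more at 8 members (20%), against 20.04%. At fold 12 or more it was 6 members (15%, interval 5.71 to 29.8), against 10.7%. At the gene ends more of the difference remained. There, fold 5 or more was reached at 16 members (40%), against 23.7% of other genes, a difference of 16.3 points against 31 over all peaks. Fold 8 or more was reached at the ends of 8 members (20%), against 11.3%, and fold 10 or more at 3 (7.5%), against 5.86%. Fold here is the authors' enrichment of a peak over background at its summit.

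**Figure D1:**
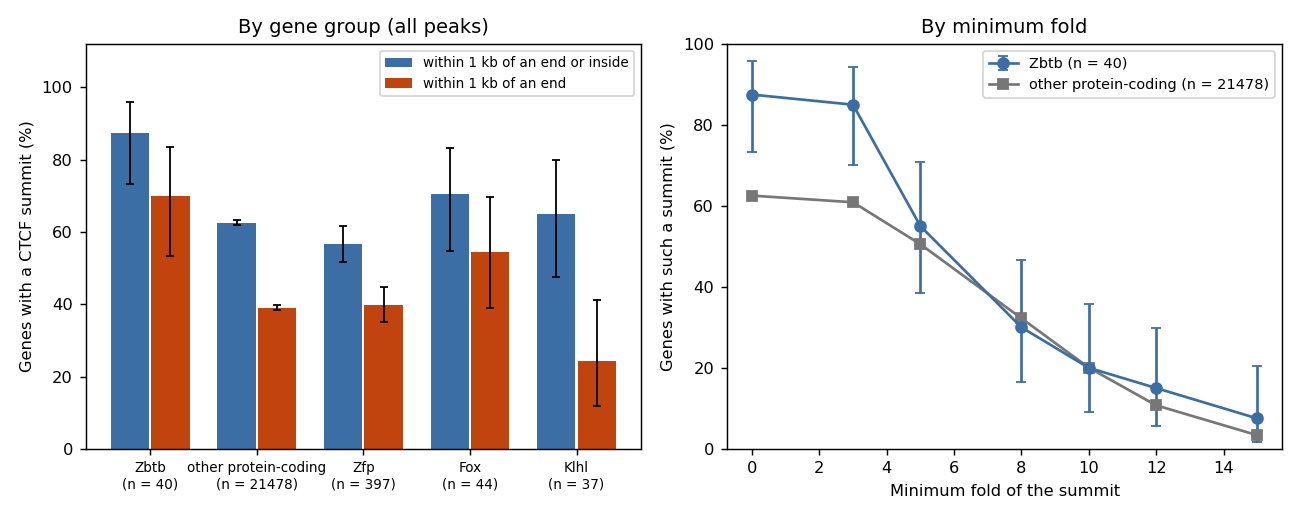
Left, percentage of genes with a CTCF summit within 1 kb of an end or inside (blue) and within 1 kb of an end (red) in 5 gene groups, with exact 95% intervals as bars. Right, percentage of genes with a summit of at least the fold on the x axis. Zbtb genes stood at 87.5% against 62.5% for other protein-coding genes over all peaks, and both were near 20% at a fold of 10.

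The sequences before the transcription start are shown for the members with the highest folds there, since they let the summit be set against the bases it covered, and for Zbtb39, whose window holds a CTCF-like match. Each line is the 250 bases before an annotated start, read 5′ to 3′ on the gene's own strand from RefSeq (GRCm38.p6, the coordinates of mm10). Capitals mark the 21 bases centred on the CTCF summit.
Zbtb33, chrX:38189543-38189792, plus strand: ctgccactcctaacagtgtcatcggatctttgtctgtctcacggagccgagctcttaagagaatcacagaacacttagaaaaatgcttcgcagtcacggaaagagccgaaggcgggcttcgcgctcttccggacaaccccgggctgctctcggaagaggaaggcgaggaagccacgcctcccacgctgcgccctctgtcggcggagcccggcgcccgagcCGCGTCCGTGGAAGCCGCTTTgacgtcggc
Zbtb32, chr7:30598910-30599159, minus strand: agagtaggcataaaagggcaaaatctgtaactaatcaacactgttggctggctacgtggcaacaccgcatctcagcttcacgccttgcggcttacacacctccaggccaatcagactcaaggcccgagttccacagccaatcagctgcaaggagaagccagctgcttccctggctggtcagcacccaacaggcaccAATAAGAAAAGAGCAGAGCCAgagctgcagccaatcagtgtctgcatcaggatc
Zbtb22, chr17:33915926-33916175, plus strand: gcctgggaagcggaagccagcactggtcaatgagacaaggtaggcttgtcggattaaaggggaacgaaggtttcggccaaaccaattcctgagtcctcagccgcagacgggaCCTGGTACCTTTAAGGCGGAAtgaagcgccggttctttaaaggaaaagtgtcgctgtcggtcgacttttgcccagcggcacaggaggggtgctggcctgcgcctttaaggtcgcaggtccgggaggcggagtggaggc
Zbtb5, chr4:45012413-45012662, minus strand: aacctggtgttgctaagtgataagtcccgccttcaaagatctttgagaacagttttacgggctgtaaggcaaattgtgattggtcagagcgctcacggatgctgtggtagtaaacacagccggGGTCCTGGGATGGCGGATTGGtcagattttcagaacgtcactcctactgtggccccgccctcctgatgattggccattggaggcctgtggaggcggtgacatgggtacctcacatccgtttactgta
Zbtb39, chr10:127739280-127739529, plus strand: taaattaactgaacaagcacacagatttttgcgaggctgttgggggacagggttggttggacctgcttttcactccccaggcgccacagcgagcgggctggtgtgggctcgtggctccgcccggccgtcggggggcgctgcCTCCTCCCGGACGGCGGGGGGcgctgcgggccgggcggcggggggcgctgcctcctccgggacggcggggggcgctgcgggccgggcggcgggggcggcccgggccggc
The summit before the Zbtb33 start, at 38189773, lay 20 bp upstream with a fold of 13.0. That before the Zbtb32 start (30598953) lay 44 bp upstream with a fold of 11.2, that before Zbtb22 (33916048) 128 bp upstream with 10.7, and that before Zbtb5 (45012529) 117 bp upstream with 9.09. The Zbtb39 summit (127739431) lay 99 bp upstream with a fold of only 2.49, in the lowest 0.939% of all peaks ranked by fold.

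The CTCF core motif was searched on both strands of the 300-base windows that RefSeq places around annotated starts, 250 bases before to 50 after. Such windows were at hand for 36 members (49 windows) and for 17237 other genes (20995 windows). Its strictest form here, read as CCA, any 2 bases, AG, any 2 bases and GGC, was in none of the 49 Zbtb windows and in 2.37% of the other windows. A looser form, which allows any base as the third letter and so includes the first, was in 5 Zbtb windows (10.2%) and in 9.98% of the others. Among windows that held a summit it was in 2 of 19 for Zbtb genes (10.5%), against 829 of 3693 for other genes (22.4%). Those 19 windows came from 17 genes and the 3693 from 3458, so some genes count more than once. The loosest form, which also allows any base in place of the A of AG and so includes both, was in 21 of all 49 Zbtb windows (42.9%), against 29.8% of the other windows, and in 7 of the 19 with a summit (36.8%), against 50.7%. The Zbtb33 window holds GCCCTCTGTCGG, a match to the looser form on the opposite strand, with its middle 35 bp from the summit. The Zbtb39 window holds GCCTCCTCCCGG and GCCTCCTCCGGG, with their middles 6 and 45 bp from the summit. None of the 3 forms was in the window of Zbtb32 or Zbtb22 shown above. A match is a description of the letters, and a window without one says nothing on whether CTCF touched the DNA there.

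CTCF summits lay close to Zbtb starts. Of the 36 members with a listed start, 25 had a summit within 1 kb of one (69.4%, exact 95% interval 51.9 to 83.6), against 37% of 17237 other genes. The nearest of these summits lay a median of 121 bp from the start, within 250 bp at 19 of the 25 (76%), and upstream of it at 18 (72%). For the 6385 other genes with such a summit the median was 131 bp, with 69.5% within 250 bp and 61.6% upstream, close to the members' values. By the gene's outer ends, a summit lay within 1 kb of the 5′ end of 22 of the 36 (61.1%, against 34.2% of other genes) and of the 3′ end of 5 (13.9%, against 8.78%). The 5 with a 3′ summit were Zbtb22, Zbtb32, Zbtb46, Zbtb7b and Zbtb8os.

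**Figure D2:**
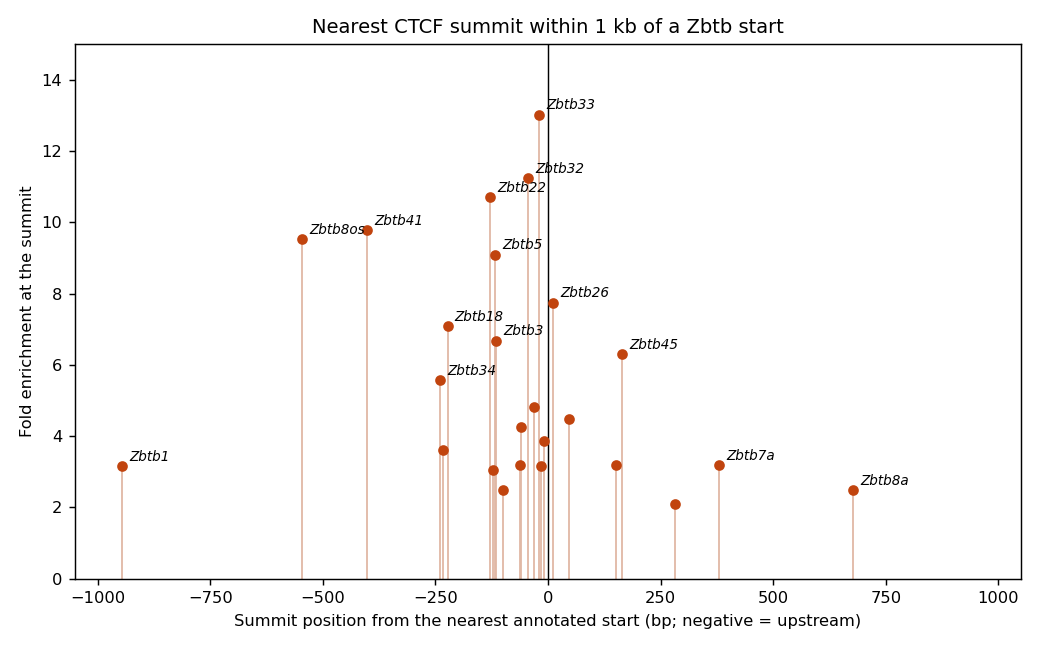
Position of the nearest CTCF summit from an annotated start (x, in bp, negative upstream) and its fold (y) for the 25 Zbtb genes with a summit within 1 kb of a start. Most points crowd just upstream of the start, and Zbtb33 is highest at a fold of 13.0.

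The starts of the Zbtb genes were rich in CpG, the dinucleotide that DNA methylation acts on. The window with the most CpG per gene held a median of 29 in members, against 15 in other genes, and 15 or more were found in 29 of 36 members (80.6%), against 50.6%. Among other genes, the share with a summit within 1 kb of a start climbed with the CpG count, from 3.56% at 0 to 4 CpG to 67.6% at 30 or more. Other genes weighted to the CpG counts of the Zbtb genes reached 55.5%, so the difference of 32.4 percentage points became 13.99. Of the 17 members with 30 or more CpG, 14 had a start summit (67.6% of other genes). At 20 to 29 CpG it was 5 of 8 members, near the 60.3% of other genes. At 15 to 19 CpG it was 3 of 4 members (48.1% of other genes), and at 10 to 14 also 3 of 4 (37.4%). The members' shares thus did not climb evenly over these classes. None of the 3 members with fewer than 10, Zbtb20, Zbtb46 and Zbtb7b, had one. For both Zbtb20 and Zbtb46 the only listed start lies deep inside the gene, so these counts do not describe the outer 5′ end. Zbtb20 had a summit at its outer 5′ end and Zbtb46 had none within 1 kb of it. The part of CpG content in the share was not tested.

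**Figure D3:**
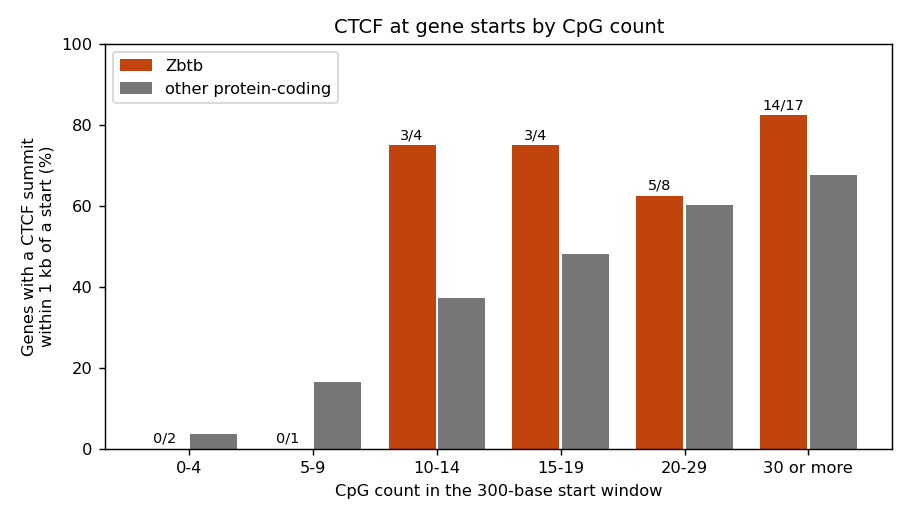
Percentage of genes with a CTCF summit within 1 kb of an annotated start (y) by CpG count in the 300-base window (x), for Zbtb genes (red, with counts above) and other protein-coding genes (grey). Other genes climb from 3.56% to 67.6%, and 14 of the 17 Zbtb genes with 30 or more CpG had a summit.

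The bound members differed widely in strength. Their highest folds ran from 2.09 to 18.2 with a median of 6.67 (quartiles 4.23 and 9.65), against a median of 8.16 for bound other genes (quartiles 5.62 and 10.8). In 13 of the 35 the highest fold was below 5 (37.1%, against 19.2% of bound other genes). A single summit was all that 20 of the 35 had (57.1%, against 44.2%), and the highest of several summits is higher by construction. The 76 assignments came from 75 distinct summits, 30 at ends and 45 inside. The end summits had a median fold of 5.73 and a median width of 547.5 bp, against 5.56 and 548 bp for 8364 end summits of other genes, values that lie close together. The inside summits had a median fold of 6.47, against 6.82 for all peaks.

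**Figure D4:**
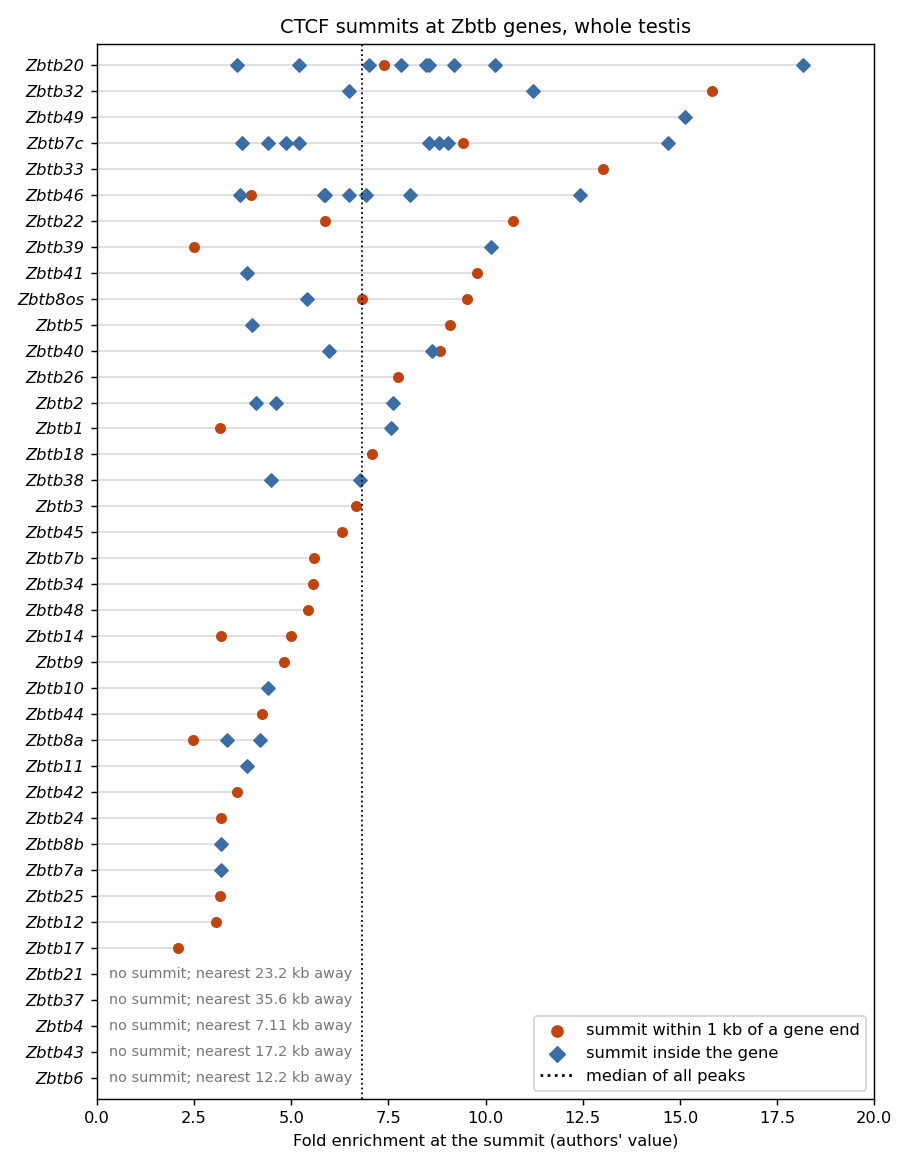
Fold enrichment (x) of every CTCF summit at each of the 40 Zbtb genes, ordered by the highest fold, with summits near a gene end as red circles and summits inside as blue diamonds. The dotted line is the median of all peaks, 6.82, and 5 genes at the bottom have no summit.

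The highest folds were at 10 members. Zbtb20, a repressor known from liver and hippocampus, led with 18.2 at a summit inside the gene (chromosome 16, 43540256; −log10 q of 83.8), above 99.6% of all peaks. Zbtb32, a regulator of lymphocytes, had 15.8 at a summit 97 bp beyond its 3′ end (chromosome 7, 30589583; −log10 q of 90.2), which also lay within 1 kb of the end of Kmt2b, a histone methyltransferase gene. Zbtb49 had 15.1 at a single summit deep inside the gene (chromosome 5, 38197636). These 3 were the members with a summit of fold 15 or more (7.5%, against 3.36% of other genes). Zbtb7c reached 14.7 inside the gene, Zbtb33 13.0 at its start and Zbtb46 12.4 inside. Zbtb22 reached 10.7 at its start and Zbtb39 10.15 inside the gene, 5.28 kb past the start (127744811), where the summit at the start had 2.49. Zbtb41 had 9.78 within 18 bp of its 5′ end, and Zbtb8os 9.52 within 111 bp of its 5′ end. Of these 10 maxima, 5 were at gene ends and 5 inside.

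The 3 longest members held the most summits, and long genes hold more summits by length alone. Zbtb20 (chromosome 16, 42875689 to 43634392) had 10, Zbtb7c (chromosome 18, 75820178 to 76148564) had 9 and Zbtb46 (chromosome 2, 181371009 to 181493262) had 8, and each had 1 of them at an end. In Zbtb20 the end summit, 172 bp before the 5′ end, had a fold of 7.40, and the others ran from 3.60 to 18.2. Of its 10 summits, 7 lay beyond 500 kb from the 5′ end. In Zbtb7c, a paralog of Zbtb7a and Zbtb7b, the end summit had 9.41 and the others ran from 3.73 to 14.7. In Zbtb46, a gene marking classical dendritic cells, the end summit had 3.95, at the 3′ end, and the others ran from 3.68 to 12.4. Per 100 kb of gene with its flanks the 40 members held 3.78 summits, against 2.98 in other genes. Among genes up to 100 kb the values were 6.18 in members and 4.54 in other genes. The 3 longest members, absent from that value, thus held fewer summits per 100 kb than the 40 members together.

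**Figure D5:**
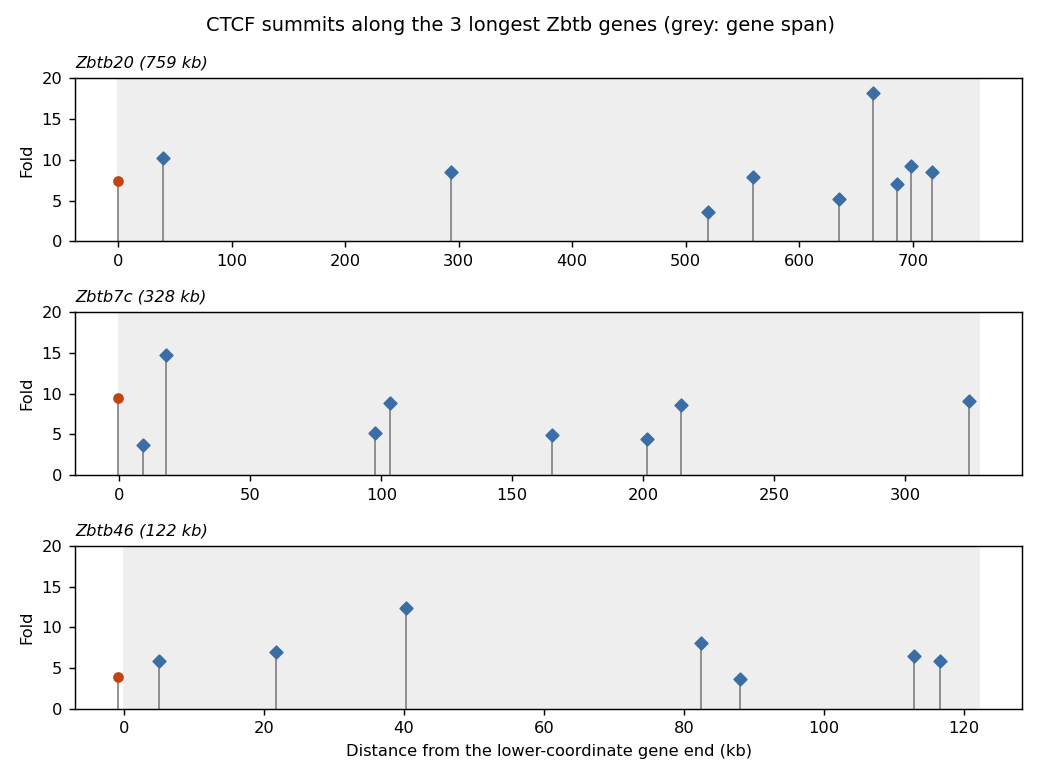
CTCF summits along Zbtb20, Zbtb7c and Zbtb46, by distance in kb from the lower-coordinate gene end (x, a scale of its own in each panel) and fold (y), with the gene span in grey, end summits as red circles and inside summits as blue diamonds. The highest in each gene, 18.2, 14.7 and 12.4, lay inside it.

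The share of other genes that were bound was larger in each longer class, and the members lay above it in all 6 classes, by little in some. Of 6 members up to 5 kb all 6 were bound, each at an end, where 27.5% of other genes of that length were bound and 25.2% at an end. Of 6 members of 5 to 10 kb 5 were bound (51.2% of other genes), of 9 members of 10 to 20 kb 6 (62.9%), and of 15 members of 20 to 50 kb 14 (74.6%). The 1 member of 50 to 100 kb and the 3 above 100 kb were bound, where 87.1% and 94.3% of other genes were. Weighted to the lengths of the Zbtb genes, 63.2% of other genes were bound, and 40.01% at an end.

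The unbound members were Zbtb4, Zbtb6, Zbtb21, Zbtb37 and Zbtb43. Their nearest summits lay 7.11 kb from Zbtb4 (fold 5.93), 12.2 kb from Zbtb6 (fold 7.74), 17.2 kb from Zbtb43 (fold 9.89), 23.2 kb from Zbtb21 (fold 3.47) and 35.6 kb from Zbtb37 (fold 3.84). The CpG counts of their start windows were 22 in Zbtb4, 19 in Zbtb6, 33 in Zbtb21, 23 in Zbtb37 and 29 in Zbtb43. The medians were 29 over members and 15 over other genes. No member lay near the 1 kb limit of the rule. The bound genes with summits only outside the gene body reached at most 240 bp (Zbtb34) and 223 bp (Zbtb18), and the nearest on the far side were Zbtb4 and Zbtb6. For gene ends the limit was closer, with Zbtb44 at 864 bp and Zbtb46 at 855 bp inside it, and Zbtb2 at 1119 bp and Zbtb7a at 1426 bp outside it.

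The members bound inside only were Zbtb2, Zbtb7a, Zbtb8b, Zbtb10, Zbtb11, Zbtb38 and Zbtb49. Some of these summits were at a listed start that lies within the gene's span. The Zbtb11 summit lay 9 bp before such a start with a fold of 3.86, and the Zbtb7a summit 380 bp past one with a fold of 3.19. Zbtb2 had 3 summits, with folds of 7.61, 4.62 and 4.10.

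Among the 3 members that bind methylated CpG, the patterns differed. Zbtb33, which encodes Kaiso and lies on X, had a single summit at its start, of fold 13.0 and −log10 q 68.2. Zbtb38 had a summit of fold 4.47 at 46 bp past a start and one of fold 6.78 deeper inside. Zbtb4 had none.

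The lymphoid and blood group comprised Zbtb1, Zbtb7a, Zbtb7b, Zbtb17, Zbtb20, Zbtb24, Zbtb25, Zbtb32 and Zbtb46. All 9 were bound, 8 of them at an end, where 87.5% of all Zbtb genes and 62.5% of other genes were bound and 70% and 39% had an end summit. Their highest folds ran from 2.09 to 18.2, the top value at Zbtb20, with a median of 5.59. Several of these were weak. Zbtb17, which encodes the Myc partner Miz1, had only a summit of fold 2.09 at 283 bp past a start, with a −log10 q of 1.76, in the lowest 0.226% of all peaks. Zbtb24, mutated in a human immunodeficiency with centromere instability, had 3.20 at 152 bp past its start. Zbtb7a, which encodes LRF and represses fetal globin in humans, had 3.19. Zbtb7b, which encodes the helper T cell factor ThPOK, had 5.59 at 813 bp from its 3′ end and close to Dcst2. Zbtb1, needed for lymphocyte development, had 7.57 inside the gene, and it shared a summit of fold 3.16 with Zbtb25.

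Both telomere-binding members were bound, where 87.5% of all Zbtb genes and 62.5% of other genes were. Zbtb48, which encodes the telomere factor TZAP, had 5.43 at 14 bp beyond an end, near Tas1r1, and Zbtb10 had 4.40 inside the gene. The 3 neural members, of which Zbtb20 is also in the lymphoid and blood group, each had an end summit, as did 70% of all Zbtb genes, with Zbtb18, a repressor in cortical neurons, at 7.09, Zbtb45 at 6.30 and Zbtb20 at 7.40 there. Zbtb42, the paralog of Zbtb18, had 3.60 at 40 bp from its 5′ end. Of the Zbtb8 pair, Zbtb8a had summits of fold 4.20, 3.33 and 2.48, and Zbtb8b a single one of 3.19. The other bound members were Zbtb3 (6.67), Zbtb9 (4.81), Zbtb12 (3.06), Zbtb14 (4.98), Zbtb26 (7.74), Zbtb34 (5.56), Zbtb40 (8.83) and Zbtb44 (4.25), each at an end.

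Some members lie side by side. On chromosome 12, Zbtb25 and Zbtb1 overlap by their 5′ ends and share the summit at 76369575. On chromosome 2, Zbtb26 had a summit of fold 7.74 12 bp past its start (37443160), also near the end of Rabgap1, and this was the nearest summit to the unbound Zbtb6, a gene only 1.249 kb from Zbtb26. On the same chromosome, Zbtb34 was bound at its start and its neighbour Zbtb43, 18.96 kb further, was unbound. On chromosome 4, Zbtb8os, Zbtb8a and Zbtb8b were all bound and lie within 1 Mb of one another. On chromosome 17, Zbtb22 and Zbtb12 in the major histocompatibility region lie 975.2 kb apart. Zbtb22, with summits at both ends (10.7 near Daxx and 5.87 near Tapbp), was stronger than Zbtb12 (3.06).

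Ends shared with another gene were frequent. Of the 30 distinct end summits of members, 11 (36.7%) also lay within 1 kb of the end of another protein-coding gene, against 1221 of 8364 end summits of other genes (14.6%). These summits may belong to either gene, and the list does not tell them apart.

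The 8 BTB zinc-finger genes without a Zbtb symbol were all bound. The 6 with a summit at an end were Bcl6 (5.47 there, 9.67 inside), the germinal centre repressor, Hic1 (8.81), a tumour suppressor gene, Mynn (7.01), Zfp131 (5.06), Bcl6b (4.67) and Hic2 (3.65). Gzf1 (13.5) and Patz1 (4.26) had summits inside only. Among 397 Zfp genes, most of which encode C2H2 proteins without a BTB domain, 56.7% were bound and 39.8% at an end. Among 37 Klhl genes, which encode BTB proteins without zinc fingers, the shares were 64.9% and 24.3%. Among 44 forkhead (Fox) genes they were 70.5% and 54.5%. The shares of the Zbtb genes, 87.5% and 70%, were above each of these 3 and below those of the 8 listed genes. These differences were not tested. With 40 genes the intervals are wide, and that of the bound share of Zbtb genes overlaps those of Fox genes (54.8 to 83.2%) and Klhl genes (47.5 to 79.8%). For the share at an end, the interval of Zbtb genes (53.47 to 83.44%) overlaps that of Fox genes (38.85 to 69.61%). It does not overlap that of Klhl genes (11.77 to 41.2%). Low folds were not particular to the Zbtb genes. The highest fold was below 5 in 37.1% of bound Zbtb genes, 32.4% of Zfp, 41.9% of Fox, 25% of Klhl and 37.5% of the 8 listed genes. A single summit was all in 57.1%, 60%, 54.8%, 37.5% and 62.5% of them, in the same order.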

How the data were processed

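CTCF IP (2) and input (2) libraries of whole testis were the samples. The submitters' processing notes list BWA 0.7.12, MACS2 2.2.7 and mm10 without saying what each was used for. The authors deposited 1 merged narrowPeak list, and its peak names read both bio2 and merged, which leaves unsettled whether it rests on 1 IP sample or both. For each peak the authors deposited a fold enrichment (a ratio over background), −log10 values of p and q, and a score in whole numbers. Only fold and −log10 q were used. The sources used here do not state the peak calling settings. All values were used only within this list.

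Summits (start plus offset) were assigned to genes of the RefSeq table for GRCm38.p6 with Python 3.11.15 (pandas 2.3.3, scipy 1.17.1). Genes with a start below 3 Mb were left out, as were Zbtb16 and genes on Y. Strand and annotated starts came from RefSeq start windows, which matched 36 members. The assignment was tested on simulated data. The members, gene lists and named genes were chosen with earlier results of these data known. Named were the 10 highest folds, unbound members, members with 5 or more summits, methyl-CpG binders, neighbours within 1 Mb and genes nearest the 1 kb limit. The motif and CpG counts were chosen after the data were seen. No test was made, since the rule used the summits compared. Alternatives were other windows, stricter peaks, peak overlap and other backgrounds.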

Additional observations from a re-analysis of the deposited data

How the results depend on the processing

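Of 49 alternative values, 39 stayed within the counting interval or quartiles of the reported value and 10 moved beyond it, with no difference from other genes changing direction among them. At a minimum fold of 8, not one of these alternatives, the bound share was 30% in members and 32.2% in other genes. With peaks of fold at least 5, the bound share became 55% (other genes 50.5%, a difference of 4.46 points against 24.96), the share at ends 40% and the density 2.34 summits per 100 kb. With only the peaks above the median −log10 q they became 47.5% (39.9%, a difference of 7.58 points), 32.5% and 1.44 per 100 kb. Density was 6.18 among genes up to 100 kb. The difference at starts was 13.99 points with other genes weighted by CpG. Stricter peaks remove summits by construction, so the depth of the list limits the shares. The last 2 choices and the length weighting at ends were added after the data were seen. No paired analysis was possible because the samples have no values of their own in the list, which also kept replicates from being left out.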

Other observations

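More CTCF summits lay around the Zbtb genes than around other genes. Within 100 kb on either side of the middle of the gene were a median of 11 summits for members, against 7 for other protein-coding genes. The median was 9 for the 8 listed BTB zinc-finger genes, 8.5 for Fox, 8 for Klhl and 6 for Zfp genes. Without olfactory and vomeronasal receptors it was 8 for other genes. The counts include a gene's own summits, by which it was called bound, so groups with more bound genes score higher in part by construction. The lowest member was Zbtb20 with 1 and the highest Zbtb22 with 26, followed by Zbtb7a with 23 and Zbtb12 with 22. Zbtb20 is 758.7 kb long, so its window lay wholly inside the gene, which held 10 summits in all. Zbtb7a and Zbtb12 nevertheless had only weak summits of their own, with folds of 3.19 and 3.06. The part of gene density in these counts was not tested.

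At Zbtb39 the deposited measures parted. Its start peak was 1139 bp wide, of fold 2.49 and −log10 q 18.3, while the Zbtb8a start peak, of fold 2.48, had a −log10 q of 2.49. Zbtb39 was picked out after its values were seen.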
